A study of Mus musculus with 4 samples.

Results

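Of the 15121 Runx3-bound regions deposited for splenic CD4+ dendritic cells (DC), 259 lay at transcription start sites (TSS) of noncoding genes only. These 259 peaks had their centre within 1 kb of a TSS of a gene that the GENCODE M1 annotation does not call protein-coding, and farther than 1 kb from every TSS of a protein-coding gene. They were set beside the 5486 peaks within 1 kb of a protein-coding TSS (coding TSS peaks) and the 9376 peaks farther than 1 kb from any annotated TSS (distal peaks). The study asked where Runx3 is bound in the genome of CD11chiMHCII+CD4+ DC of WT C57BL/6 mice, and used chromatin immunoprecipitation with sequencing (ChIP-seq) with an in-house polyclonal Runx3 antibody in 2 samples and fragmented whole cell extract (input) in 2 samples. Cells of each sample were pooled from approximately 15 mice, and the strain of 1 input sample is labelled C57BL/7. No mutant or treated cells were part of the ChIP-seq. Both Runx3 samples and both inputs went into 1 run of the peak caller MACS2, so no peak has a value per replicate and no spread between replicates can be given. The file holds positions and peak scores and no RNA, so the labelled cell type could not be checked against marker genes and no statement on transcript levels can be made.

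Runx3 is a runt-domain transcription factor that binds DNA together with Cbfb, prefers the hexamer TGTGGT, and is known in the immune system for its part in cytotoxic T cell, NK cell and DC development. Noncoding genes are a mixed class. Long noncoding RNAs are transcribed by RNA polymerase II from promoters much like those of protein-coding genes, and some host snoRNAs or miRNAs in their introns. For a miRNA, the annotated record is the hairpin that is cut from a longer primary transcript, so its annotated start is a processing site and not the place where transcription begins. Many small nuclear and nucleolar RNA records and pseudogenes are copies that arose by retroposition.

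The sequences shown here are of 2 kinds. The first are bound stretches of the mm9 genome, shown on the plus strand with the RUNX hexamer TGTGGT in capitals (ACCACA where it lies on the minus strand). They were chosen to show the hexamer nearest to the peak centre at the miRNA genes Mir142 and Mir155, at the Mir155 host transcript, at a small RNA gene and at 4 peaks of high score or beside an antigen presentation gene.
Mir142, chr11:87570021-87570106: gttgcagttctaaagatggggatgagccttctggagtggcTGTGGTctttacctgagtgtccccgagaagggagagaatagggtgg
Mir155 hairpin record, chr16:84714284-84714369: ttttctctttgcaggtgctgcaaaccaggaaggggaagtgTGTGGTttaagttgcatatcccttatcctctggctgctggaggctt
Mir155 lincRNA record, chr16:84713482-84713567: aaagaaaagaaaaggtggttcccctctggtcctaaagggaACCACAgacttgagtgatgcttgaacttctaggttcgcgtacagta
Scarna2, chr3:108357689-108357774: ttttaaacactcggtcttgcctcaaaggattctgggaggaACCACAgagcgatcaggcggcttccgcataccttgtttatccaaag
5031425F14Rik, chr2:166272314-166272399: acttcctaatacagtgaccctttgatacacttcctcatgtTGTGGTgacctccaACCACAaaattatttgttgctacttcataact
Gm11346, chr13:24691603-24691688: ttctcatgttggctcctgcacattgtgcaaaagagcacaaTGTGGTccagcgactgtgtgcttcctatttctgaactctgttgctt
Gm20443, chr17:35877341-35877426: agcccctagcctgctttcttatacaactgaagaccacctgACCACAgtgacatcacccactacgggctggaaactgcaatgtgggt
Hmgb1-ps5, chr3:95333857-95333942: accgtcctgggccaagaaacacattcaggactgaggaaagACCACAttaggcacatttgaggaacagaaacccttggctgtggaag

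The second hexamer of interest was TGACGT, which the study assigns to the DC factor zDC (Zbtb46) and which is also the core of the cAMP response element TGACGTCA. In the palindrome TGACGTCA the hexamer occurs on both strands and was counted on each. The peak at Mir132 and Mir212 held 3 copies of the palindrome and no TGTGGT, and the highest-scoring Neat1 peak held 1 palindrome, so these stretches are shown with the palindrome in capitals. Each of these peaks also held 1 copy of TGCGGT, a variant of the RUNX hexamer.
Mir132 and Mir212, left pair, chr11:74986752-74986815: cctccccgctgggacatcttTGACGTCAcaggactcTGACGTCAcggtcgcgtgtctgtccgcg
Mir132 and Mir212, right copy, chr11:74987128-74987255: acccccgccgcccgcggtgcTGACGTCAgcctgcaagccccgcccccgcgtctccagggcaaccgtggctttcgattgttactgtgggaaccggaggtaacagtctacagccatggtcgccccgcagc
Neat1, chr19:5845996-5846043: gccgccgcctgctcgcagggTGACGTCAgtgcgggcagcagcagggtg
The right stretch of Mir132 runs on into the hairpin, and the DNA of mature miR-132-5p was found at chr11:74987188-74987209. Matched by gene symbol, RefSeq (GRCm38.p6) gave 15 mature miRNAs for the named miRNA genes with such a peak, Mir212 included. Mir145 is not among them, since its symbol matched no miRNA sequence, although RefSeq knows it as a miRNA gene. The 7 shown were picked as well-known arms, with the seed, bases 2 to 8, in capitals. miR-132-3p and miR-212-3p share a seed, and the others each had a seed of their own.
miR-132-3p: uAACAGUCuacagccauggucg
miR-212-3p: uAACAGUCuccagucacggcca
miR-142a-3p: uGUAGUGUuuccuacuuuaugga
miR-142a-5p: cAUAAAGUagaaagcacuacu
miR-155-5p: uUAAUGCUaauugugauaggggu
let-7i-5p: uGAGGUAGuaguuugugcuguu
miR-33-5p: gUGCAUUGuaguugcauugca

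By the type of the nearest noncoding gene, 77 of the 259 peaks lay at lincRNA genes and 83 at genes of the type processed_transcript, which holds further long RNAs such as antisense transcripts. These 160 peaks are called long noncoding peaks below. A further 39 lay at pseudogenes, 21 at miRNA, 17 at snRNA, 9 at snoRNA and 10 at misc_RNA or rRNA records, and 3 at immunoglobulin or T cell receptor segments. The miRNA, snRNA, snoRNA, misc_RNA and rRNA peaks, 57 in all, are called small RNA peaks. The nearest TSS belonged to 242 different genes. There were 16 genes with more than 1 peak, and Neat1 with 3 had the most.

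Peaks at lincRNA genes were the most frequent relative to the number of genes that could hold one. Of 13457 noncoding genes with a TSS away from protein-coding TSS, 253 had such a peak, or 1.88%. For lincRNA genes the share was 9.90% (72 of 727, Wilson 95% interval 7.94 to 12.3), and for processed_transcript genes it was 3.62% (77 of 2127, 2.91 to 4.50). The intervals of these types did not overlap. The shares of the small RNA types were close to each other, from 1.04% of snoRNA genes (0.629 to 1.70) to 1.54% of miRNA genes (1.02 to 2.31), and their intervals overlapped. Pseudogenes had the lowest share, 0.673% (34 of 5056, 0.482 to 0.938). Its interval overlapped those of snoRNA, snRNA, and misc_RNA and rRNA genes, and that of antigen receptor segments (1.04%, 0.447 to 2.42). For comparison, 24.9% of the 22367 protein-coding genes had a peak within 1 kb of a TSS, and 4.53% of all 14906 noncoding genes had a peak of any kind within that distance. The wide gap between 1.88% and 4.53% reflects the rule, since peaks that also lie near a protein-coding TSS are not counted here. Intervals cover counting error, and differences between replicates are not part of them.

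**Figure D1:**
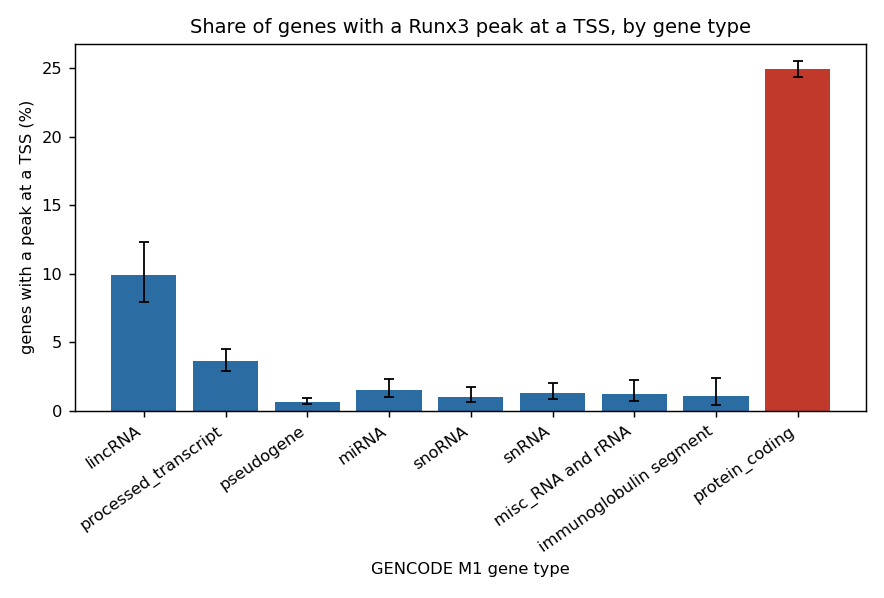
Share of annotated genes (%) with a Runx3 peak at a TSS, by GENCODE M1 gene type; blue bars count noncoding genes away from protein-coding TSS and the red bar counts protein-coding genes, with Wilson 95% intervals as error bars. The lincRNA bar at 9.90% stands above the other noncoding types and below the protein-coding bar at 24.9%.

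The peaks were unevenly spread over the chromosomes. Chromosome 17, which carries the major histocompatibility complex, had 30 of them among 813 peaks of all kinds (3.69%), and 27 of its 410 noncoding genes away from protein-coding TSS were bound (6.59%, 4.57 to 9.41). Peaks inside and outside that complex were not counted apart. Chromosome 11, where Mir132, Mir212 and Mir142 lie, had 37 of 1201 peaks (3.08%), at 3.45% of such genes (2.54 to 4.68). Chromosome X had a low share by genes and the highest by peaks, with 7 of its 179 peaks (3.91%) at 0.431% of 1625 such genes (0.209 to 0.887), among them the X inactivation centre genes Enox and B230206F22Rik described below.

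The median peak score at noncoding TSS had an interval that overlapped those of both other kinds of peak. The score is the value MACS2 wrote, in a unit that is not stated, and it was used here to rank peaks within the list. Scores of the 259 peaks ran from 1.33 to 109.5 with a median of 12.0 (95% interval of the median 9.84 to 13.4). The median was 12.7 for coding TSS peaks and 12.0 for distal peaks. Of the 259, 66 reached the upper quartile of the list (a score of 23.2), or 25.5% (20.6 to 31.1), against 25.4% of all peaks. The difference was 1.02 percentage points from coding TSS peaks (Newcombe 95% interval -4.04 to 6.77) and -0.445 from distal peaks (-5.45 to 5.26). Medians by type were 10.8 for long noncoding peaks (9.69 to 13.4), 12.7 for small RNA peaks (8.49 to 14.6) and 15.0 for pseudogene peaks (8.74 to 25.8), with overlapping intervals. Widths ran from 253 to 1096 bp with a median of 400 bp.

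**Figure D2:**
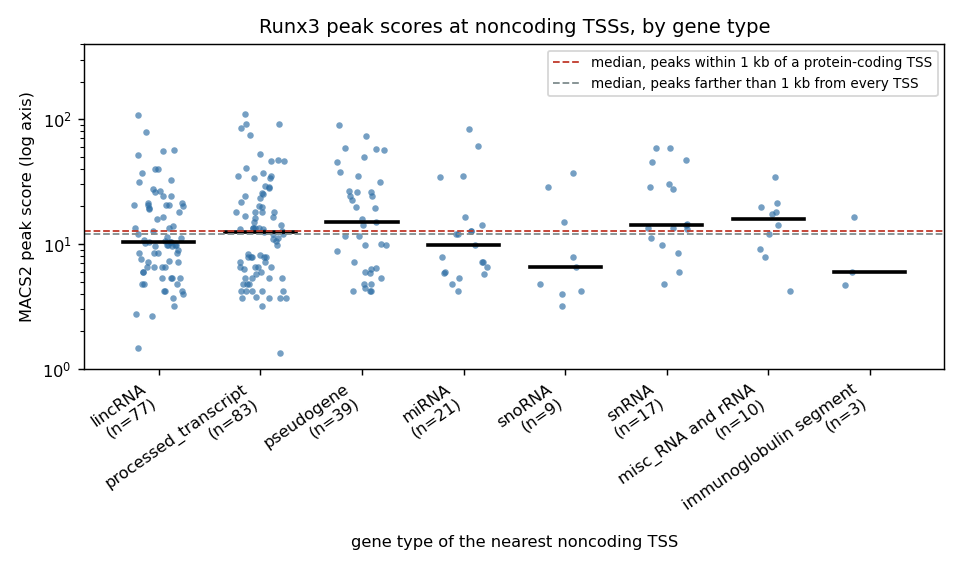
MACS2 peak score (log axis) of each of the 259 peaks, by the type of the nearest noncoding gene; points are peaks, black bars are medians, and dashed lines are the medians of coding TSS peaks and of distal peaks. Every type with more than 3 peaks holds scores below and above both dashed lines.

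The highest scores were found at little-studied genes. Gm12862 on chromosome 4 had the highest score, 109.5, at an exon (chr4:118672080-118672836). It was followed by Abhd1 at 108.2, where the peak covered the TSS (chr5:31251885-31252704), and by 5031425F14Rik at 91.9. Gm11346, a transcribed pseudogene inside an intron of Fam65b, had scores of 90.7 and 7.84 at its 2 peaks. Gm9985 in an intron of Ggt5 had a score of 89.4, and Gm20443 on chromosome 17 had 84.6. The hexamer TGTGGT was absent from the peaks at Gm12862 and Abhd1, occurred once at Gm9985, in 2 copies at 5031425F14Rik and in 3 copies each at Gm11346 and Gm20443. The variant TGCGGT was present in 1 copy at Gm12862 and in 2 copies at Abhd1. AC154327.1, a predicted miRNA in an intron of Arhgef3, had a score of 83.4. Gm17311, a lincRNA gene whose TSS the peak covered, had a score of 78.6, and the protein-coding TSS nearest to the peak centre, at 65106 bp, was that of Ptgs2, the inducible cyclooxygenase. The peak at the antisense transcript Gm11537 had a score of 75.1, and its centre lay 5222 bp from the TSS of the sorting nexin gene Snx11.

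Some high scores belonged to genes whose annotation as noncoding is doubtful. Cebpd, which encodes the transcription factor C/EBP delta, is a pseudogene record in this annotation, and its peak covered the TSS with a score of 73.9. Mafg, which encodes a small Maf protein, also has a pseudogene record, and the peak at that record had a score of 59.1 and its centre 2125 bp from the TSS of the protein-coding record. In the RefSeq table the symbol of the nearest noncoding gene was that of a protein-coding gene for 18 of the 259 peaks, of a lncRNA for 86, and matched no entry for 114. With such genes counted as protein-coding, a step added after the data were seen, 240 peaks remained, and their median score was 11.7.

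Among miRNA genes, peaks were found at 5 of the 58 annotated genes of a list of 67 haematopoietic and immune miRNAs, Mir142, Mir155, Mir132, Mir212 and Mirlet7i, with Mir132 and Mir212 sharing 1 peak. The other annotated genes of the list had no peak of any kind within 1 kb of the hairpin start. Over all miRNA genes away from protein-coding TSS, 22 of 1433 had a peak. Mir142, whose miRNA is known for its expression in blood cells, had a peak of score 14.2 at chr11:87570001-87570400. Its centre lay 166 bp upstream of the hairpin start, which the peak covered, and it held 1 TGTGGT. The nearest protein-coding TSS, that of Bzrap1, was 3843 bp from the centre.

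Mir155, a miRNA induced when DC and other immune cells are activated, has a hairpin record and a lincRNA record of the same name, and each had a peak. The peak at the hairpin (chr16:84714106-84714489) had a score of 12.0 and covered its start from 88 bp upstream. The other peak (chr16:84713309-84713647) had a score of 13.8, and its centre lay 210 bp downstream of the lincRNA TSS in an intron. Each peak held 1 TGTGGT, on opposite strands of the genome as shown above.

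Mir132 and Mir212 are 2 neighbouring hairpins on chromosome 11 whose transcription is known to respond to cAMP signalling. Their shared peak (chr11:74986731-74987355) had a score of 16.5, was 625 bp wide, and had a CpG observed to expected ratio of 0.863. This peak was also within 1 kb of a TSS of the lincRNA gene 1700016P03Rik, and cannot be assigned to 1 of these records. Its centre lay 4022 bp from the TSS of Hic1, a transcriptional repressor gene among those that the study lists as differing in expression between Runx3-/- and Runx3+/+ CD4+ DC. Mirlet7i had the highest score of a named miRNA, 35.2, with the centre 432 bp downstream of the hairpin start (chr10:122422114-122422582). Its CpG ratio was 1.45, and it held neither TGTGGT nor TGACGT but 1 copy of TGCGGT.

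Of the other miRNA records, Mir33 had a peak of score 7.20 in an intron of its host gene Srebf2, which encodes a regulator of sterol synthesis. Mir700 had a peak of score 6.57 in an exon of Rcan3, Mir1932 one of score 5.79, and Mir145 one of score 12.0. The remaining 13 miRNA peaks lay at records with clone names such as AC102815.1. Its peak of score 61.3 was also within 1 kb of a pseudogene record named Kctd12, and cannot be assigned to 1 of these 2 records. Some pseudogene records of this annotation are those of protein-coding genes, as for Cebpd above. In all, 6 of the 21 miRNA peaks overlapped the hairpin record. Of the 21 genes, 7 had an entry of the same symbol in the RefSeq table of miRNA sequences used here, and Mir145 had none under that symbol.

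Long noncoding RNAs with known functions were also bound. On a list of 38 snoRNA host and nuclear lncRNA genes, 23 were in the annotation, and 8 of them had 1 of the 259 peaks. Another 4, Snhg1, Snhg9, Tug1 and Mir22hg, had a peak that was near a protein-coding TSS as well. For comparison, 9.90% of lincRNA genes and 3.62% of processed_transcript genes away from protein-coding TSS had a peak. The list holds genes of both types and was not limited to those away from protein-coding TSS, so these shares are over an unlike set. It was made of well-known genes, with earlier results of these data known. Snhg5, a host gene of box C/D snoRNAs, had the highest score of the list, 55.3, with the peak over its TSS (chr9:88417488-88418072). The peak at Snhg12 had a score of 15.0 and was shared with the snoRNA genes Snora16a, Snora44 and Snora61 that it hosts. Snhg4 had a peak of score 6.57 over its TSS.

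Neat1 and Malat1 are neighbouring genes on chromosome 19 that encode abundant nuclear RNAs, of paraspeckles and nuclear speckles respectively. Neat1 had peaks of score 46.2, 13.4 and 7.84. The highest (chr19:5845268-5846206) covered a TSS, had a CpG ratio of 0.659 and held the palindrome shown above and 1 TGCGGT but no TGTGGT. The lower peaks had CpG ratios of 0.375 and 0.324 and held 1 TGTGGT each. Malat1 had the widest of the 259 peaks, 1096 bp, with a score of 33.7 and its centre 771 bp upstream of the nearest annotated TSS (chr19:5802895-5803990). It held neither TGTGGT nor TGACGT but 1 copy of TGCGGT.

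Jpx and Ftx are noncoding genes of the X inactivation centre. Jpx, named Enox in the annotation, had a peak of score 27.6 in an intron, and Ftx, named B230206F22Rik, had one of 4.79. Dleu2, the host gene of miR-15a and miR-16-1, had peaks of 4.79 and 2.67. Of 16 immune lncRNAs listed, 9 were annotated. Morrbid, a lncRNA known to control survival of short-lived myeloid cells and named Gm14005 here, had a peak of score 13.4 that was 1026 bp wide and covered its TSS (chr2:128254838-128255863), and Dleu2 was on this list too. The listed genes Ptgs2os and Hotairm1 had a peak that lay near a protein-coding TSS as well.

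Among the 17 snRNA peaks, 9 lay at records of the spliceosomal RNA U6 and 4 at records of U1. The annotated records of each snRNA were not counted, so these numbers show no preference for U6 or U1. Of all snRNA genes away from protein-coding TSS, 18 of 1386 had a peak (1.30%, 0.823 to 2.04). The highest snRNA scores were 59.1, 58.9 and 46.9, all at U6 records. Scarna2, a guide RNA of Cajal bodies, had the highest score of the snoRNA class, 37.1, with its centre 19 bp from the TSS. The misc_RNA records AC142099.1 (score 34.2) and 7SK (score 19.8) had 4 copies of TGTGGT each, more than any other of the 259 peaks. Both lay in introns of a protein-coding gene, Ift122 and Paqr5 respectively. The annotation holds many copies of such small RNAs, and the authors kept reads that aligned uniquely. How well reads can be placed within or beside each copy was not examined. Of the 57 small RNA peaks, 21 overlapped the RNA gene itself.

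Antigen receptor segments had 3 peaks. Iglv3, a variable segment of the lambda light chain, had a score of 16.5, Trbv1 of the T cell receptor beta chain had 5.96, and the diversity segment record Gm16877 had 4.73. Each held 1 or 2 copies of TGTGGT.

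The side of the TSS was not used to choose the peaks. Of the 259, 154 lay upstream, 104 downstream and 1 at the TSS. The TSS itself was covered by 111 peaks, or 42.9% (37.0 to 48.9). Distance to the TSS was used by the rule and is given as a description. The centre was within 200 bp of the TSS for 45.6% of long noncoding peaks and for 28.1% of small RNA peaks. The median distance was 249.5 bp for long noncoding peaks and 427 bp for small RNA peaks. With respect to the noncoding gene, 171 peaks were centred outside it, 45 in an exon and 43 in an intron. At the limit of the rule, 39 peaks lay in the last 200 bp inside it with a median score of 14.2, and 34 further peaks lay in the first 200 bp beyond it with a median score of 9.62. The outermost of the 259 was 997 bp from its TSS, and the closest peak left out was at 1003 bp.

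**Figure D3:**
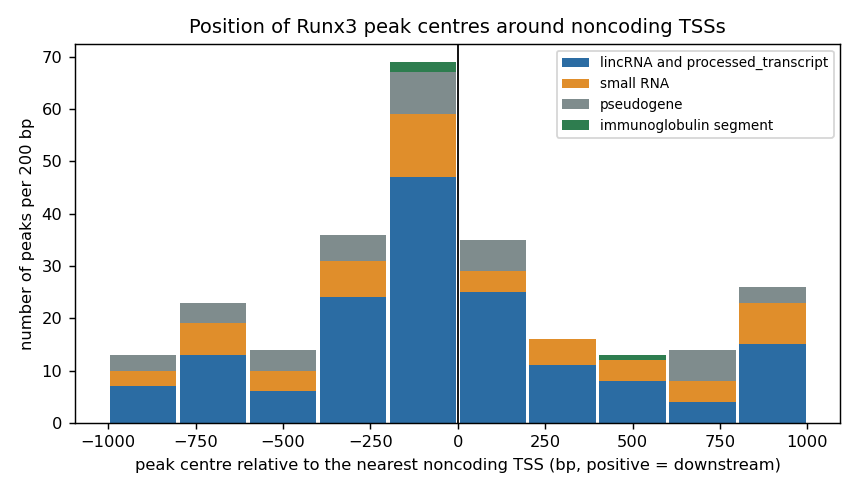
Number of peaks per 200 bp of distance between the peak centre and the nearest noncoding TSS (bp, positive values downstream in the direction of transcription), coloured by gene type. The tallest bar is the one just upstream of the TSS, where 47 of the peaks are long noncoding.

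CpG content set these peaks apart from both other kinds. The CpG observed to expected ratio compares the CpG dinucleotides of a peak with the number its C and G content would give, and promoters in CpG islands lie above about 0.6. The ratio was 0.6 or above in 89 of the 259 peaks, or 34.4% (28.9 to 40.3), against 30.4% of all peaks. That was 39.3 points below coding TSS peaks at 73.7% (interval of the difference -44.9 to -33.2) and 29.5 points above distal peaks at 4.91% (23.9 to 35.5). Within the long noncoding class, 46.8% of lincRNA peaks and 27.7% of processed_transcript peaks reached 0.6, a difference of 19.04 points (4.07 to 33.0). The median ratio of the 259 peaks was 0.416, with quartiles of 0.239 and 0.699, so the peaks spanned CpG-poor and CpG-rich sequence. The 259 peaks were centred a median of 277 bp from the noncoding TSS, and coding TSS peaks 107 bp from a protein-coding TSS. Within 500 bp of a noncoding TSS the median ratio was 0.586. Distance was not matched in comparisons with coding TSS peaks, here or for motifs, and its part in the differences was not tested. Snhg5 (1.09), Cebpd (0.744) and Malat1 (0.817) were CpG-rich, and 5031425F14Rik (0.150), Gm20443 (0.202) and Mir142 (0.291) were CpG-poor.

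**Figure D4:**
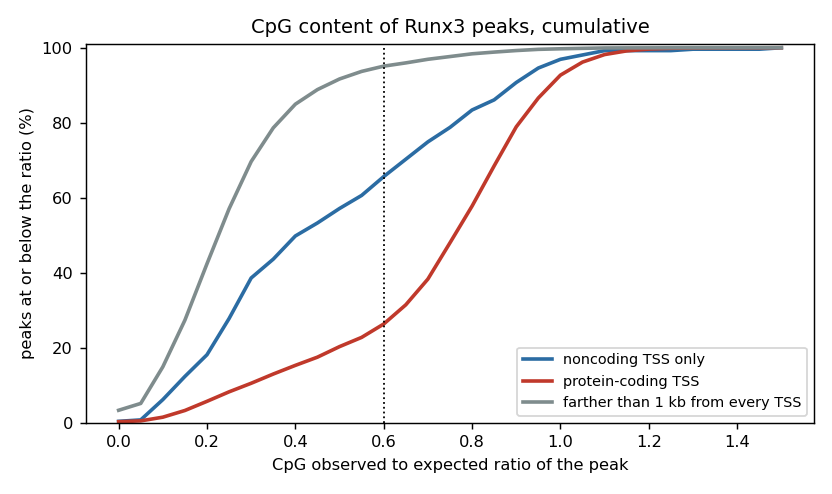
Cumulative share of peaks (%) against the CpG observed to expected ratio, for peaks at noncoding TSS only (blue), coding TSS peaks (red) and distal peaks (grey); the dotted line marks 0.6. The blue curve runs between the others, with 34.4% of peaks at 0.6 or above.

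The RUNX hexamer TGTGGT, searched on both strands, was present in 131 of the 259 peaks, or 50.6% (44.5 to 56.6), against 54.0% of all peaks. Each peak was compared with a window of the same width 10 kb downstream. In the 252 pairs with a usable window, 26.6% of windows held the hexamer, 95 pairs had it in the peak alone and 34 in the window alone (exact McNemar test, two-sided p = 7.34e-08). The excess over windows was 24.2 points, and among the 66 peaks in the upper quartile of the score it was 9.52 points and did not pass the test (exact McNemar p = 0.345). The share was 16.98 points above coding TSS peaks (33.6%, interval 10.8 to 23.2), whose own windows held it in 33.6% of cases (exact McNemar p = 0.934), and 15.5 points below distal peaks (66.1%, interval of the difference -21.6 to -9.38). The windows were not matched on base composition.

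By gene class, 48.1% of long noncoding peaks held TGTGGT (26.9% of their windows, exact McNemar p = 0.000142) and 59.6% of small RNA peaks (20.4% of windows, p = 0.000113 by the same exact test). Among pseudogene peaks the share was 43.6% against 35.9% of windows (exact p = 0.664). The difference between long noncoding and small RNA peaks was -11.5 points, with an interval of -25.5 to 3.54 that includes 0. Of the 131 peaks with the hexamer, 79 had 1 copy, 41 had 2, 9 had 3 and 2 had 4. The copy nearest to the centre lay within 50 bp of it in 65 peaks and within 100 bp in 103, and its median distance was 52 bp.

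Presence of the hexamer went with CpG content. It was found in 28.1% of the 89 CpG-rich peaks and in 62.4% of the 170 peaks with a ratio under 0.6, a difference of -34.3 points (-45.1 to -21.7). Within the CpG-rich class the share was 28.1% at noncoding TSS and 25.7% at coding TSS (difference 2.38 points, -6.02 to 12.6). Within the CpG-poor class it was 62.4% and 55.6% (difference 6.71 points, -1.19 to 14.1), and 67.7% of CpG-poor distal peaks held it (difference -5.36 points, -12.9 to 1.65). At equal CpG class each of these intervals includes 0.

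TGACGT was present in 39 of the 259 peaks, or 15.1% (11.2 to 19.9), against 11.0% of all peaks and 2.38% of the downstream windows. Of the 252 pairs, 38 had it in the peak but not the window and 6 the reverse (exact McNemar test, two-sided p = 9.43e-07). The windows were not matched on CpG content, so the test cannot tell the hexamer from CpG content. Other motifs with a CpG were also more frequent in peaks, TGCGGT in 25.8% against 5.16% of windows and GGGCGG in 35.7% against 9.52%. The share of peaks with TGACGT was 7.74 points above distal peaks (7.32%, interval 3.86 to 12.6). It differed by -2.04 points from coding TSS peaks (17.1%, interval -6.02 to 2.92). TGACGT contains a CpG, and at equal CpG class the difference from distal peaks was smaller, 4.83 points in CpG-rich peaks (-3.28 to 14.9, which includes 0) and 4.92 points in CpG-poor peaks (0.868 to 10.7). The palindrome TGACGTCA was present in 9 of the 259 peaks (3.47%, 1.84 to 6.47), in 2.28% of all peaks and in none of the 252 windows. The Mir132 peak was the one among them with more than 1 copy.

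Without regard to CpG class, other motifs placed the peaks between coding TSS peaks and distal peaks, or close to 1 of them. GAGGAAGT, a site of the myeloid factor PU.1, was in 17.4% of the 259 peaks, 7.29% of coding TSS peaks and 18.8% of distal peaks. Within CpG-rich peaks it was in 10.1% at noncoding TSS. That was 5.53 points above coding TSS peaks (0.784 to 13.6) and 5.55 points above distal peaks (0.309 to 13.7). Within CpG-poor peaks the differences were 6.30 points (0.498 to 13.3) and 1.63 points (-3.91 to 8.42) respectively. TGACTCA, the AP-1 site, was in 13.5%, 5.25% and 11.9% respectively. CCGGAAGT, an ETS site typical of housekeeping promoters, was in 1.54% of the 259 peaks, 10.6% of coding TSS peaks and 1.13% of distal peaks. Within CpG-rich peaks it remained rarer at noncoding TSS, in 3 of 89 (3.37%) against 13.1% at coding TSS, a difference of -9.77 points (-12.2 to -3.61). The GC box GGGCGG was in 35.1%, 65.7% and 11.7%, and within CpG-rich peaks in 65.2% at noncoding and 77.3% at coding TSS (difference -12.2 points, -22.6 to -2.99). TGCGGT, a variant of the RUNX hexamer, was in 25.5% of the 259 peaks and 5.16% of their windows, in 30.1% of coding TSS peaks and in 14.1% of distal peaks. Both strands of each complete peak were read for every motif, and a match is a description of the sequence. In total 62 differences between shares were given an interval, without adjustment for their number, and 32 of the intervals left out 0.

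**Figure D5:**
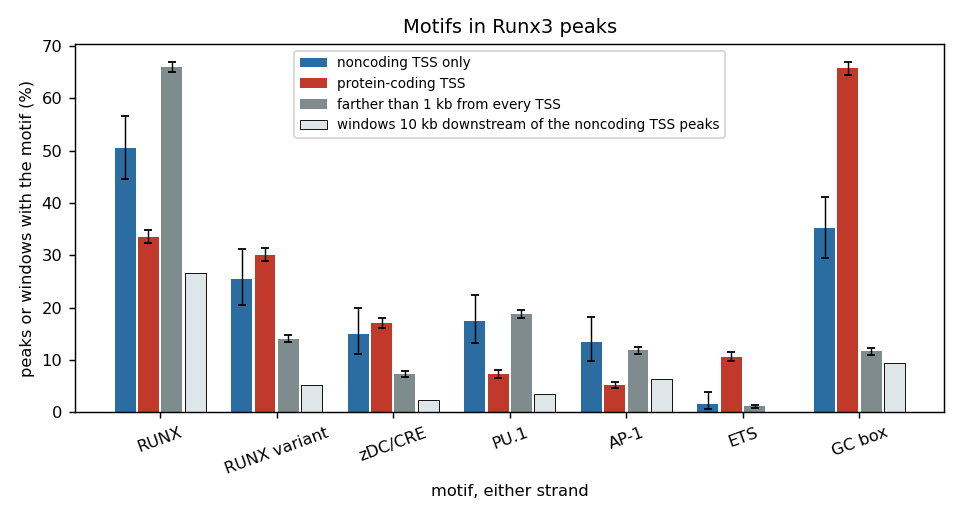
Share of regions (%) that hold each motif on either strand, for peaks at noncoding TSS only (blue), coding TSS peaks (red), distal peaks (grey) and the windows 10 kb downstream of the noncoding TSS peaks (white); error bars are Wilson 95% intervals. The blue bars of the RUNX hexamer and of the GC box stand between the red and grey bars, and the PU.1 and AP-1 bars stand near the grey ones.

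The place of the peaks relative to protein-coding genes differed with the class. Of the 259, 71 were centred inside a protein-coding gene, or 27.4% (22.3 to 33.2), against 52.4% of all peaks, 50.5% of distal peaks (difference -23.1 points, -28.3 to -17.3) and 56.9% of coding TSS peaks. Of these 71, 61 lay in an intron and 10 in an exon. Of the 39 long noncoding peaks inside a protein-coding gene, the noncoding gene was on the opposite strand in 32, while 16 of the 22 small RNAs lay on the same strand as their host. Antisense transcripts accounted for 38 of the long noncoding peaks. Of the peaks at antisense transcripts, 18 lay inside a protein-coding gene, and 17 of these were on the opposite strand. The annotation names such transcripts by their strand, so these counts describe the annotation as well as the peaks. Of the 77 long noncoding peaks at transcripts of the type lincRNA (long intergenic noncoding RNA), 4 lay inside a protein-coding gene. The share of 27.4% therefore also describes the annotation. How much of its difference from distal peaks comes from the annotation was not tested. The same shares over all noncoding TSS, bound or not, were not computed. The nearest protein-coding TSS was at a median of 17423 bp and at most 360571 bp. It was 1 to 2 kb away for 21 peaks, 2 to 5 kb for 33, 5 to 10 kb for 40, 10 to 50 kb for 120, and more than 50 kb for 45.

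The nearest protein-coding genes were compared with 3 gene lists. For 17 of the 259 (6.56%, 4.14 to 10.3) the nearest protein-coding TSS was that of a gene that the study lists as differing between Runx3-/- and Runx3+/+ CD4+ DC, against 4.08% of all peaks and 5.22% of distal peaks. Besides Hic1, these genes included Ptgs1 (cyclooxygenase 1), 10203 and 13312 bp from the centres of the peaks of score 35.2 and 19.8 at the lincRNA transcript Gm13431. Il1a was 6003 bp from the centre of the peak of score 13.4 at a U12 record. Cd69 was farther, 42380 and 37093 bp from the centres of the peaks of score 26.7 and 4.23 at 2310001H17Rik. Those genes were listed by the study from other samples, and nearness does not assign a peak to a gene. Antigen presentation genes were nearest for 3 peaks (1.16%, 0.395 to 3.35), against 0.384% of all peaks. Hmgb1-ps5, in an intron of Ctss, which encodes the protease cathepsin S, had a score of 31.3 and 2 copies of TGTGGT. Gm20506 in an intron of H2-Ob had a score of 3.76, and Gm4152 on chromosome 17, nearest to the class I gene H2-K1, had 11.7. H2-K2, a class I pseudogene on the same chromosome, had a score of 49.4 with the peak over its TSS. A DC transcription factor gene was nearest for 1 peak (0.386%, 0.0682 to 2.15), against 1.16% of all peaks, and this was Gm11932 in an intron of Bach2 with a score of 5.36.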

How the data were processed

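Runx3 ChIP-seq data of splenic CD4+ DC comprised 2 immunoprecipitates and 2 inputs. The authors aligned reads uniquely to mm9 with Bowtie and called peaks once over all samples with MACS2. Base calls came from CASAVA 1.8, per the submitters' processing notes. Versions of the other tools and the calling threshold are not given in the sources used here. The deposited list gives a position and a peak score for each peak, and the authors do not state the unit of the score. Read depth per peak is unknown from this list, so absence of a peak means that none was called. The list holds no column of other samples.

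Coordinates are mm9, counted from 1. Sequences came from NCBIM37 and genes from GENCODE M1. Wilson intervals were computed for shares, Newcombe intervals for differences of shares, and binomial order-statistic intervals for medians, all at 95%. Two-sided exact McNemar tests compared peaks with windows 10 kb downstream. Methods were checked on simulated data. Named peaks were the 10 of highest score, the 5 widest, the 3 highest of each gene type, those with most TGTGGT, and those of 3 gene lists or beside DC genes, and some were left out for length. Members and lists were chosen with earlier results of these data known. Alternatives were score limits, other distances, any base of the peak, gene types left out, other TSS sets, joined peaks, the central 200 bp and upstream windows. Tools were Python 3.11.15 with pysam 0.24.0, pandas 2.3.3, numpy 2.4.6, matplotlib 3.10.9 and scipy 1.17.1.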

Additional observations from a re-analysis of the deposited data

How the results depend on the processing

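The number of 259 peaks fell to 124 with scores at or above the median of the list, to 66 at or above the upper quartile and to 162 with long noncoding genes alone. The median score of 12.0 was then 24.2 and 37.1 under the score limits. The share of noncoding genes with a peak, 1.88%, was 0.959% and 0.491% under these limits, 1.43% within 500 bp, 2.69% within 2 kb, 2.13% when any base of the peak counted, 2.61% without pseudogenes and 5.22% for long noncoding genes alone. The median CpG ratio of 0.416 was 0.586 within 500 bp, 0.327 within 2 kb and 0.488 with 1 TSS per gene, where the share inside protein-coding genes was 39.3%. Fewer peaks or genes entered under the score limits by construction, and for the other settings the cause was not tested. TGTGGT was in 53.0% of the 66 peaks at or above the upper quartile, 9.52 points above their windows (exact McNemar p = 0.345), and its excess over windows passed the threshold under the other 12 alternatives. The excess of TGACGT passed under all 13 alternatives run, none of which matched the windows on CpG content.

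No paired analysis was possible because the deposited list is 1 call over all samples, and no replicate can be left out of it. Precision is limited by the number of peaks, small for single gene types, and by the annotation, in which some protein-coding genes are pseudogene records. No antisense gene type exists in it, so that planned group of named peaks was empty.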
